A study of Mus musculus with 4 samples.

Results

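The genes described are 10 members of the YAP/TEAD arm of the Hippo pathway in Hepa1-6 cells, a mouse hepatoma line, taken from a fixed list of regulators and targets and matched by gene symbol. They are the coactivators Yap1 and Wwtr1, the DNA-binding factors Tead1 and Tead3, the angiomotin relatives Amotl1 and Amotl2, and the targets Ctgf (current symbol Ccn2), Cyr61 (current symbol Ccn1), Ankrd1 and Arhgef17. All 10 were found among the 23521 genes of the table. The Chd1KD group (n = 2) carried a lentiviral shRNA against Chd1, an ATP-dependent chromatin remodeler, and the Control group (n = 2) carried a scrambled lentiviral shRNA. The Control genotype is given as wild type, and the cells of both groups were selected in puromycin at 4 μg/ml for 3 weeks before poly(A) RNA was sequenced. The labels say neither how many shRNA sequences were used nor whether replicate libraries stem from independent transductions. The p-values therefore reflect library-to-library spread alone, and part of that spread could be technical.

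In the Hippo pathway, MST kinases activate LATS kinases, which phosphorylate the coactivators YAP and TAZ (the product of Wwtr1) and so hold them in the cytoplasm. When the kinases are inactive, YAP and TAZ enter the nucleus, bind TEAD factors and switch on targets such as Ctgf, Cyr61 and Ankrd1. In liver the pathway limits organ size, and active YAP drives growth and a shift of hepatocytes toward a biliary or progenitor state. Much of this control acts on protein location and phosphorylation, which mRNA levels do not measure.

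TEAD factors bind a short core element, GGAATG, read as CATTCC on the opposite strand. This motif was searched on both strands in windows of the 250 bases before annotated start sites. These were RefSeq promoter windows on GRCm38.p6, the assembly behind the mm10 build of the deposited values. Windows were at hand for 7 of the 10 genes. Those of Amotl1 and Amotl2 lay wholly inside the annotated span of the gene, before internal starts. The outermost start of either gene had no window. The motif was present in a window of 6 of the 7 (Yap1, Wwtr1, Tead3, Amotl2, Cyr61 and Ankrd1), against 14.4% of the 27025 genes with a window and 12.5% of the 8202 tested genes with a window. By window, it was present in 8 of 10, against 12.6% of all 32851 windows. Some windows of Wwtr1 and Tead3 overlap each other, and both Wwtr1 windows hold the same copy, which is counted in each. The list was drawn up with known targets in it, so these shares are descriptive. Ctgf, Tead1 and Arhgef17 were not examined. A match is a description of these letters, not a site shown to be bound.

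The upstream regions of Cyr61 and Ankrd1 are shown because both genes are standard readouts of YAP activity, one with a single copy of the motif and the other with a pair. Both lie on the minus strand and are printed 5′ to 3′ along the gene's own strand, at chr3:145649986-145650235 for Cyr61 and chr19:36119845-36120094 for Ankrd1. Capitals mark the motif.
Cyr61: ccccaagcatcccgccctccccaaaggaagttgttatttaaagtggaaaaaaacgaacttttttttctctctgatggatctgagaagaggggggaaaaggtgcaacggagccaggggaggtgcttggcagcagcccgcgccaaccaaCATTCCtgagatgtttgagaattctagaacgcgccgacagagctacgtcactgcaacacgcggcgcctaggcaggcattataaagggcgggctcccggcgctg
Ankrd1: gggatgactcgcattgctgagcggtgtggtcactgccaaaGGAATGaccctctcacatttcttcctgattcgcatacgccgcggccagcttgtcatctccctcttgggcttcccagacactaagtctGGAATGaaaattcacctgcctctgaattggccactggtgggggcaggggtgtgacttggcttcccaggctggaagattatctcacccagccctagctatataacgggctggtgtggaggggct
In Cyr61 the motif began 103 bases before the start site, and in Ankrd1 the copies began 210 and 123 bases before it.

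The motif also stood in windows of both coactivator genes, of Tead3 and of Amotl2. Short stretches around them are shown so that the flanks can be compared with those of the targets, with capitals for the motif. They lie at chr9:8004725-8004744 (Yap1, minus strand), chr3:57576034-57576053 (Wwtr1, minus strand), chr17:28350702-28350730 (Tead3, minus strand) and chr9:102717732-102717751 (Amotl2, plus strand).
Yap1: gtctgcaGGAATGtagcgac
Wwtr1: actcaaaGGAATGcagatag
Tead3: ccgggctCATTCCgtaCATTCCggccatc
Amotl2: actctcaCATTCCtggcata
The Tead3 stretch holds a tandem pair of copies and lies inside the annotated span of the gene. A further Tead3 copy, within chr17:28350975-28350994 in another window, is not printed. That copy began 182 bases before its start site. At least 2 copies in a window occurred in 2 of the 10 windows of these genes (Ankrd1 and Tead3) and in 1.02% of all windows.

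**Figure D1:**
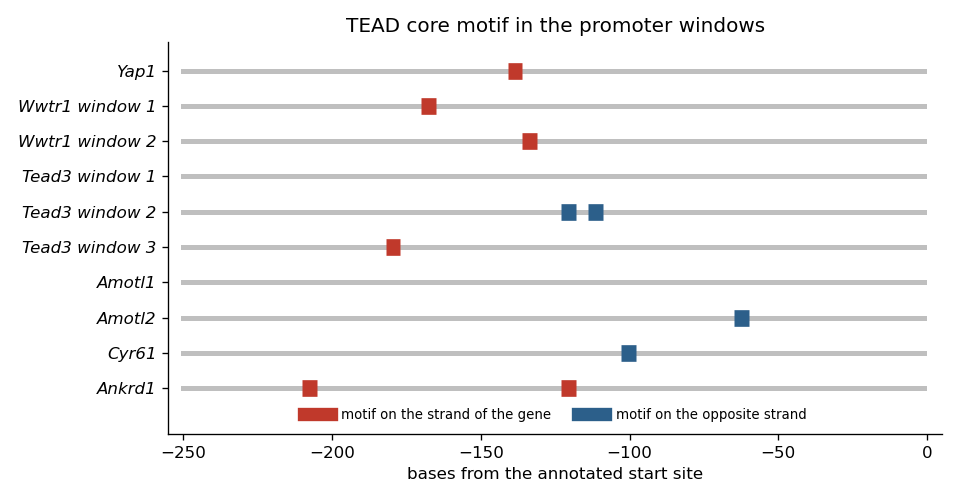
Position of the TEAD core motif in the 10 promoter windows of 7 genes, in bases from the annotated start site. Grey lines are the 250 bases searched, red blocks are copies on the strand of the gene and blue blocks copies on the opposite strand. The Amotl1 window and 1 of the 3 Tead3 windows hold none.

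The values are RPKM, a measure scaled by transcript length and by the mapped reads of the library, summed over the RefSeq transcripts of each gene. How reads shared by transcripts of a gene were divided among them is not known here. The sums and the transcript shares below depend on that step. Summed RPKM per library ranged from 459381 to 484490, and between 10161 and 10209 genes reached 1 RPKM. Sequencing depth is unknown. Chd1 had 10.4 and 11.3 RPKM in the Chd1KD libraries, against 21.4 and 22.5 RPKM in the Control libraries. Hepatocyte and hepatoma genes were partly present: 7 of 10 markers had a mean of at least 1 RPKM, among them Afp, Alb and Hnf4a, while Ttr and Serpina1a were listed at 0 in every library, which need not mean absence. The 10 summed to 993.9 and 1324 RPKM in Chd1KD, against 1412 and 2282 RPKM in Control, most of it Apoe. Hnf4a, Trf, Apob and Fgb also had lower means in Chd1KD than in Control, but the groups overlapped for Fgb. Afp had a higher mean in Chd1KD (56.7 RPKM) than in Control (34.8 RPKM). Alb did too (47.6 against 37.1 RPKM), but its groups overlapped, with 18.6 and 55.6 RPKM in the Control libraries. Of the matched markers, 0 of 10 for fibroblasts and stellate cells, 0 of 8 for endothelium and 0 of 7 for macrophages had a mean of at least 1 RPKM. For 6 cholangiocyte markers, of which 4 had a mean of at least 1 RPKM and Cftr was at 0, the summed level was 27.3 to 28.2 RPKM in Chd1KD and 35.9 to 36.9 RPKM in Control. In bulk RNA of a cell line, fewer cells with a marker and less of its RNA per cell cannot be told apart. The part of these markers in the results below was not tested.

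None of the 10 genes passed the test between Chd1KD and Control. The test covered all 10209 genes whose mean reached 1 RPKM, all 10 members among them, with limma on log2(RPKM + 1), and a Benjamini-Hochberg adjusted p under 0.05 over all of them was a call. By that rule 47 genes, or 0.46%, were called. Leaving out a library leaves a single library in its group, with no spread of its own, so p-values of such fits are not given. Amotl1 alone of the 10 had an unadjusted p under 0.05, with the higher level in Chd1KD (limma). Of all tested genes 18.5% reached that p, 7.24% with the higher level in Chd1KD and 11.3% with the lower. The groups were separate, with no library of one inside the range of the other, for 3 of the 10 (Tead1, Amotl1 and Arhgef17), against 51.8% over the whole table. Of the 10, 6 had a positive log2 fold change, against 43.5% of all tested genes, and their median was 0.02, against -0.02 over all tested genes.

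Neither coactivator passed the test, and the groups overlapped for both. Yap1, which lies on chromosome 9 from 7931999 to 8004638, had 36.8 and 37.4 RPKM in the Chd1KD libraries, against 36.0 and 37.9 RPKM in the Control libraries. The Chd1KD values lay between the Control values. The log2 fold change was 0.01 with a 95% interval from -0.13 to 0.15 (limma, adjusted p = 0.97). Of the 10 genes it had the narrowest interval and the smallest fold change.

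Wwtr1 encodes TAZ, the partner of YAP that shares its TEAD-binding function. Wwtr1 had 19.3 and 20.1 RPKM in Chd1KD, against 17.5 and 19.9 RPKM in Control (chromosome 3, 57455644 to 57575910). The groups overlapped. The estimate was 0.07 on the log2 scale, with an interval from -0.11 to 0.26 (limma, adjusted p = 0.65). Yap1 made up 65.3% ± 0.42 of the summed RPKM of the 2 coactivator genes in Chd1KD and 66.4% ± 1.2 in Control (SD, n = 2 each).

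Yap1 was reported as 2 transcripts. NM_009534 had 22.1 and 19.97 RPKM in Chd1KD, against 19.4 and 21.1 RPKM in Control. NM_001171147 had 14.8 and 17.4 RPKM in Chd1KD, against 16.6 and 16.8 RPKM in Control. NM_009534 was the more abundant in all 4 libraries, and its share of Yap1 was 53.5% to 59.9% in Chd1KD and 54.0% to 55.6% in Control. For Wwtr1, NM_133784 carried at least 97.7% of the RPKM in every library.

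Among the DNA-binding factors, Tead1 had separate groups without passing the test. Tead1 had 24.2 and 24.4 RPKM in Chd1KD, against 20.7 and 23.3 RPKM in Control (chromosome 7, 112679356 to 112906784). Both Chd1KD libraries were above both Control libraries, and the difference between the Control libraries, 2.56 RPKM, was larger than the difference between the group means, 2.30 RPKM. The ratio of means was 1.11 and the log2 fold change 0.14 with an interval from -0.03 to 0.31 (limma, adjusted p = 0.34). The value was 0.06 without Control replicate 1, 0.22 without Control replicate 2 and 0.07 with only the most abundant transcript.

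Tead1 was reported as 3 transcripts, in the same order of level in all 4 libraries. NM_001166584 had 41.5% and 42.6% of the Tead1 RPKM in Chd1KD, against 45.9% and 42.5% in Control. NM_009346 had 41.4% and 32.5% in Chd1KD, against 31.6% and 41.6% in Control, and NM_001166585, the lowest, took the rest. Shares differed as much between libraries of a group as between groups.

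Tead3 was lower in level than Tead1. It had 7.11 and 6.13 RPKM in Chd1KD, against 7.50 and 6.30 RPKM in Control (chromosome 17, 28331671 to 28350805). The groups overlapped. The estimate was -0.05 on the log2 scale, with an interval from -0.30 to 0.20 (limma, adjusted p = 0.83). NM_011566 was its main transcript, with 66.2% and 76.9% of the RPKM in Chd1KD and 79.5% and 71.6% in Control. A further transcript, NM_001204156, had 0.066 RPKM in both Chd1KD libraries and was listed at 0 in both Control libraries.

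The 2 remaining family members complete the pool of factors that YAP and TAZ can bind. The 4 TEAD genes summed to 73.3 and 73.7 RPKM in Chd1KD, against 78.2 and 75.8 RPKM in Control. Tead2 held the largest share in every library, 46.2% and 48.2% in Chd1KD and 54.3% and 49.0% in Control. Tead1 held 33.1% in each Chd1KD library, against 26.5% and 30.7% in Control. The Tead1 share was higher and the Tead2 share lower in both Chd1KD libraries than in either Control library. The shares were not tested, and neither gene passed the test on its level. Tead2 had 33.8 and 35.5 RPKM in Chd1KD, against 42.4 and 37.2 RPKM in Control (log2 fold change -0.19, limma, adjusted p = 0.26). Its log2 fold change was -0.098 without Control replicate 1 and -0.28 without Control replicate 2. Tead4 had 8.11 and 7.68 RPKM in Chd1KD, against 7.53 and 9.09 RPKM in Control, with overlap.

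**Figure D2:**
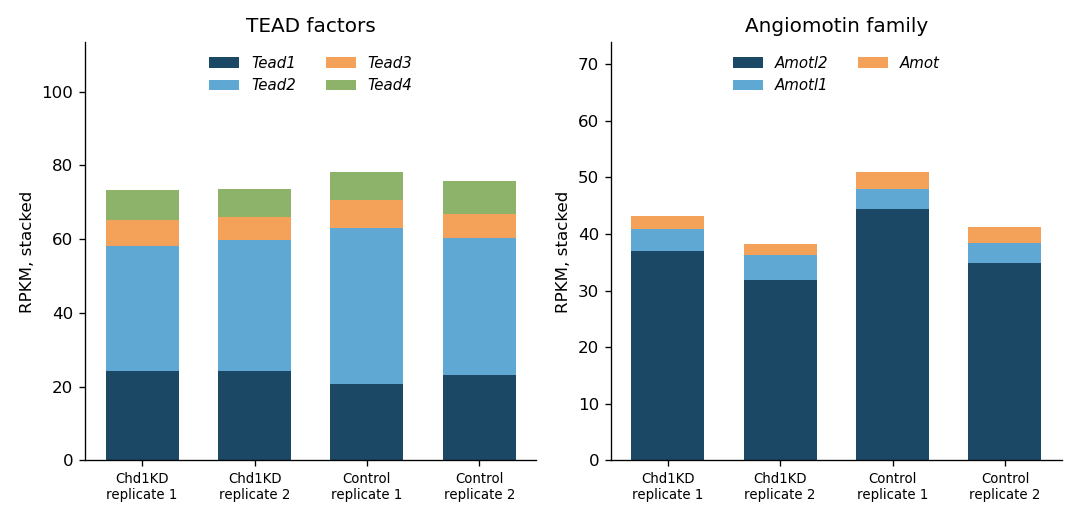
Stacked RPKM of the 4 TEAD genes (left) and the 3 angiomotin family genes (right) in each library, Chd1KD libraries first; each bar is 1 library. Tead2 and Tead1 make up most of the TEAD sum and Amotl2 most of the angiomotin sum in all 4 libraries.

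Angiomotins can hold YAP at cell junctions, and Amotl2 is in addition a YAP target. Amotl1 had 4.03 and 4.47 RPKM in Chd1KD, against 3.47 and 3.40 RPKM in Control (chromosome 9, 14541966 to 14662974). Both Chd1KD values were above both Control values. The ratio of means was 1.24 and the log2 fold change 0.24 with an interval from 0.04 to 0.45 (limma, adjusted p = 0.21). Over 13 alternative settings the log2 fold change ranged from 0.18 to 0.30, and the smallest adjusted p was 0.13 (limma).

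Amotl2 was the most abundant angiomotin. It had 36.9 and 31.8 RPKM in Chd1KD, against 44.5 and 34.9 RPKM in Control (chromosome 9, 102717091 to 102733418). The groups overlapped, and the Control libraries differed by 9.56 RPKM, more than the 5.35 RPKM between the group means. The log2 fold change was -0.20 with an interval from -0.49 to 0.09 (limma, adjusted p = 0.42). When single libraries were left out, it ranged from -0.37 without Control replicate 2 to -0.03 without Control replicate 1. Amot is the founding member of the family and no member of the list. It had 2.15 and 1.87 RPKM in Chd1KD, against 2.96 and 2.91 RPKM in Control. The ratio was 0.69 and the log2 fold change -0.39 (limma, adjusted p = 0.12). With a pseudocount of 0.1 the log2 fold change was -0.53 (limma, adjusted p = 0.13). Of the 3 angiomotin genes, Amotl1 made up 9.4% and 11.7% of the summed RPKM in Chd1KD, against 6.8% and 8.3% in Control, and Amot 5.0% and 4.9% in Chd1KD, against 5.8% and 7.1% in Control.

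The targets were led by Ankrd1, a stress-responsive ankyrin repeat protein of the nucleus and the sarcomere. It had 141.0 and 127.6 RPKM in Chd1KD, against 161.7 and 130.0 RPKM in Control (chromosome 19, 36111965 to 36119844). The groups overlapped, with Control replicate 1 above the other 3 libraries. The log2 fold change was -0.11 with an interval from -0.37 to 0.15 (limma, adjusted p = 0.61). It was 0.05 without Control replicate 1 and -0.27 without Control replicate 2. Ankrd1 stood at the 94.7th percentile of tested genes by level in Chd1KD and at the 95.2nd in Control.

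Ctgf encodes a secreted matricellular protein of the CCN family and is among the most used YAP reporters. It had 89.3 and 100.8 RPKM in Chd1KD, against 89.6 and 95.03 RPKM in Control (chromosome 10, 24595442 to 24598683). Both Control values lay between the Chd1KD values. The log2 fold change was 0.04 with an interval from -0.14 to 0.22 (limma, adjusted p = 0.81). Ctgf overlaps a long noncoding gene, Gm15270, at the high-coordinate edge of that gene. Wwtr1, Amotl1 and Arhgef17 overlap a pseudogene, a long noncoding gene and a microRNA gene, in that order. No source used here states whether reads were assigned by strand.

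Cyr61, the CCN family relative of Ctgf, is an immediate early gene as well as a YAP target. It had 58.0 and 38.6 RPKM in Chd1KD, against 54.1 and 29.9 RPKM in Control (chromosome 3, 145646971 to 145649985). Both libraries numbered 1 were high and both numbered 2 were low, so the groups overlapped. Within each number the Chd1KD library was the higher. The means were 48.3 ± 13.7 RPKM in Chd1KD and 42.0 ± 17.1 RPKM in Control (SD, n = 2 each). The log2 fold change of 0.23 had the widest interval of the 10 genes, from -0.44 to 0.90 (limma, adjusted p = 0.70). Leaving out single libraries gave values from -0.19 without Control replicate 2 to 0.65 without Control replicate 1.

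Arhgef17 encodes a guanine nucleotide exchange factor. It had 1.89 and 1.91 RPKM in Chd1KD, against 2.40 and 2.28 RPKM in Control (chromosome 7, 100869746 to 100932161). Both Chd1KD libraries were below both Control libraries. The ratio of means was 0.81 and the log2 fold change -0.20 with an interval from -0.42 to 0.02 (limma, adjusted p = 0.30). At this level the log2(RPKM + 1) scale understates the ratio, and with a pseudocount of 0.1 the log2 fold change was -0.29 (limma, adjusted p = 0.30).

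**Figure D3:**
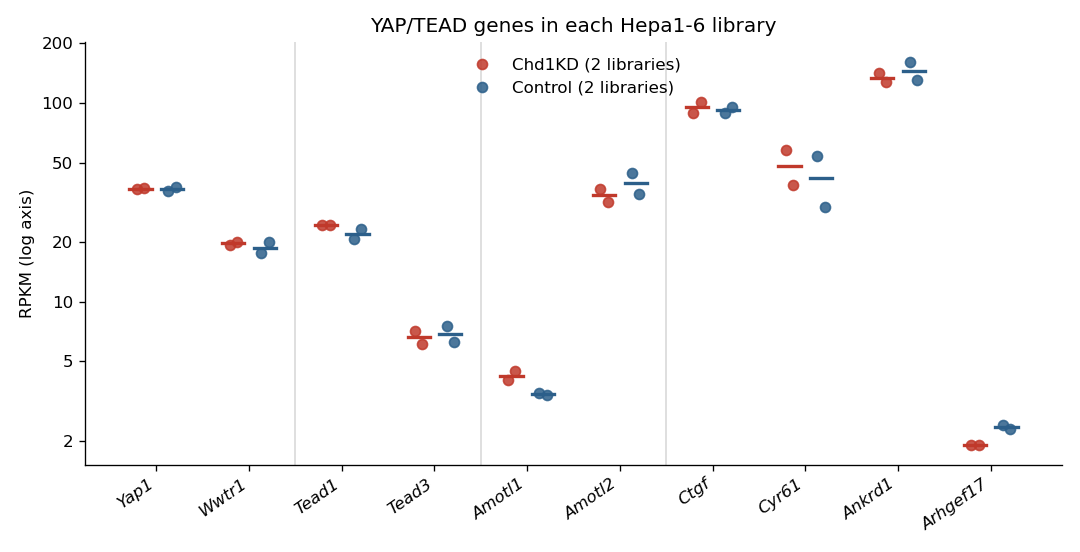
RPKM of the 10 genes in each library on a log axis, with Chd1KD in red left of Control in blue; points are libraries and bars are group means, and grey lines separate coactivators, TEAD factors, angiomotin relatives and targets. Groups are separate for Tead1, Amotl1 and Arhgef17 and overlap for the other 7, and the Cyr61 libraries lie far apart within each group.

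RPKM is scaled per transcript length, so levels can be ordered between genes, within the limit on shared reads given above. By mean RPKM the order in Chd1KD was Ankrd1, Ctgf, Cyr61, Yap1, Amotl2, Tead1, Wwtr1, Tead3, Amotl1 and Arhgef17. In this group only the neighbours Yap1 and Amotl2 had libraries that overlapped. In Control the order was the same except that Amotl2 stood above Yap1, and Cyr61, Amotl2 and Yap1 were not separated from their neighbours by their libraries. The highest mean, that of Ankrd1, was 134.3 RPKM in Chd1KD and 145.8 RPKM in Control, and the lowest, that of Arhgef17, was 1.90 RPKM in Chd1KD and 2.34 RPKM in Control.

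Libraries of the same group differed more for some targets than the groups did. Cyr61 was higher in replicate 1 than in replicate 2 by 0.58 in Chd1KD and by 0.84 in Control on the log2(RPKM + 1) scale. These differences were larger than those of 99.6% and 99.7% of tested genes, where the median absolute difference was 0.068 in Chd1KD and 0.095 in Control. Amotl2 differed by 0.21 in Chd1KD and 0.34 in Control in the same direction, and Ankrd1 by 0.14 in Chd1KD and 0.31 in Control. Ctgf went the other way, with -0.17 in Chd1KD and -0.08 in Control. The sign was the same in both groups for 8 of the 10 genes, 4 with replicate 1 higher and 4 with replicate 2 higher, against 62.1% of all tested genes. The labels do not say what a replicate number marks. In the submitters' library names, the Control and Chd1KD libraries of the same replicate number carry consecutive numbers.

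**Figure D4:**
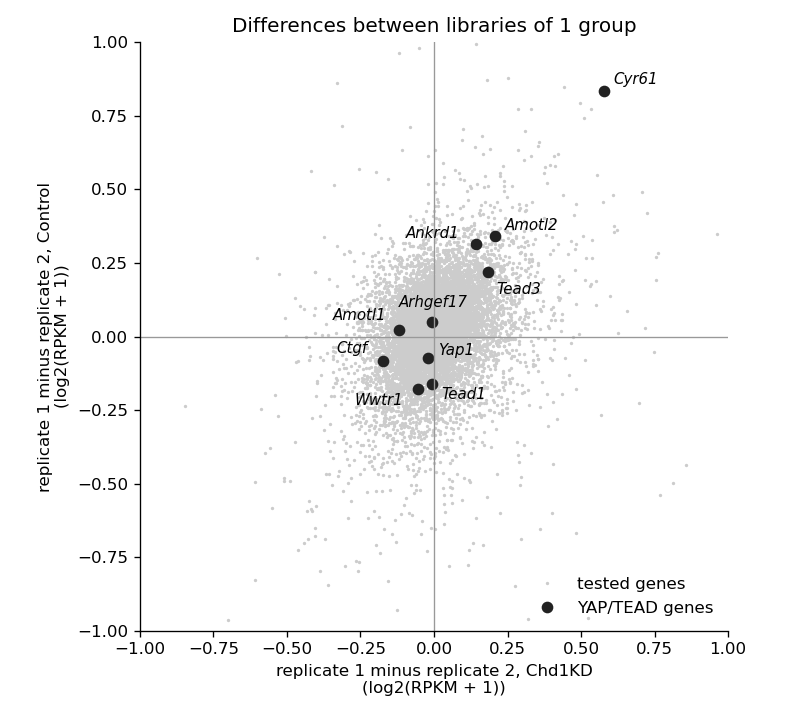
Difference between replicate 1 and replicate 2 on the log2(RPKM + 1) scale, in Chd1KD (horizontal axis) and Control (vertical axis), for tested genes (grey) and the 10 YAP/TEAD genes (black). Cyr61 lies at 0.58 and 0.84, far from the other 9 members, and 26 tested genes lie outside the range shown.

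The rest of the pathway was read from 4 further lists of 55 genes. Of these, 42 had a mean of at least 1 RPKM and were tested, and none was called (limma). At an unadjusted p under 0.05 there were 8 of the 42 (3 higher and 5 lower in Chd1KD), which is 19.0%, beside the 18.5% of the whole table. The groups were separate for 18 of the 42, or 42.9%, beside 51.8% of the whole table. Their median log2 fold change was -0.03.

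In the core kinase cascade, 11 of 11 genes were tested, with a median log2 fold change of 0.03. The MST kinases stood on opposite sides. Stk3, which encodes MST2, had 13.6 and 13.2 RPKM in Chd1KD, against 16.0 and 15.1 RPKM in Control (log2 fold change -0.20, limma, adjusted p = 0.19). Stk4, which encodes MST1, had 22.6 and 22.4 RPKM in Chd1KD, against 20.6 and 20.4 RPKM in Control (log2 fold change 0.13, limma, adjusted p = 0.29). The groups did not overlap for either gene. Map4k4, a kinase that can act on LATS in parallel to MST, had means of 85.4 ± 0.51 RPKM in Chd1KD and 77.6 ± 1.5 RPKM in Control (SD, n = 2 each; limma, adjusted p = 0.25).

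Of 14 upstream scaffolds and inhibitors, 10 were tested, with a median log2 fold change of -0.02. Wwc2 and Wtip were listed at 0 in all libraries, and Ptpn14 and Dchs1 stayed under 0.1 RPKM. Besides Amot, the smallest p-values belonged to Fat1 and Limd1. Fat1, a giant protocadherin, had 64.8 and 60.1 RPKM in Chd1KD, against 52.6 and 57.1 RPKM in Control (log2 fold change 0.18, limma, adjusted p = 0.23). Limd1, a LIM protein that binds LATS, had 20.8 and 21.1 RPKM in Chd1KD, against 22.8 and 22.5 RPKM in Control (log2 fold change -0.11, limma, adjusted p = 0.37).

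Among 8 TEAD paralogs and partners, 5 were tested and each had a negative fold change (median -0.11), as did 5766 of all 10209 tested genes. Of the TEAD members, which this list leaves out, Tead1 had a log2 fold change of 0.14 and Tead3 of -0.05. Runx1, a transcription factor that can bind YAP, had 1.003 and 0.66 RPKM in Chd1KD, against 1.62 and 1.09 RPKM in Control. The log2 fold change was -0.36 (limma, adjusted p = 0.28). At this level the log2(RPKM + 1) scale understates the ratio of means, which was 0.61. Runx2 had a log2 fold change of -0.11 (limma, adjusted p = 0.52). Vgll1, Vgll2 and Vgll3, TEAD cofactors, were listed at 0 in all libraries, while their relative Vgll4 had 43.4 and 40.6 RPKM in Chd1KD, against 44.9 and 42.5 RPKM in Control.

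Of 22 further YAP/TAZ target genes, 16 were tested, 7 with positive and 9 with negative fold changes and a median of -0.04. Fosl1, an AP-1 subunit, had 51.2 and 48.9 RPKM in Chd1KD, against 68.9 and 62.6 RPKM in Control (log2 fold change -0.38, limma, adjusted p = 0.079). Without Control replicate 2 the log2 fold change of Fosl1 was -0.45. Ccnd1, the G1 cyclin D1, had 312.5 and 317.4 RPKM in Chd1KD, against 359.5 and 380.3 RPKM in Control (log2 fold change -0.23, limma, adjusted p = 0.13).

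Thbs1, the matricellular protein thrombospondin 1, stood on the other side. It had 89.6 and 86.1 RPKM in Chd1KD, against 50.5 and 72.4 RPKM in Control, a ratio of 1.43 (log2 fold change 0.53, limma, adjusted p = 0.15). The Control libraries differed by more than did the Chd1KD libraries. The log2 fold change was 0.28 without Control replicate 1 and 0.79 without Control replicate 2. Fjx1 and Foxf2 were listed at 0 in all libraries, and Nt5e, Tgfb2, Rbms3 and Fstl1 stayed under 1 RPKM.

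**Figure D5:**
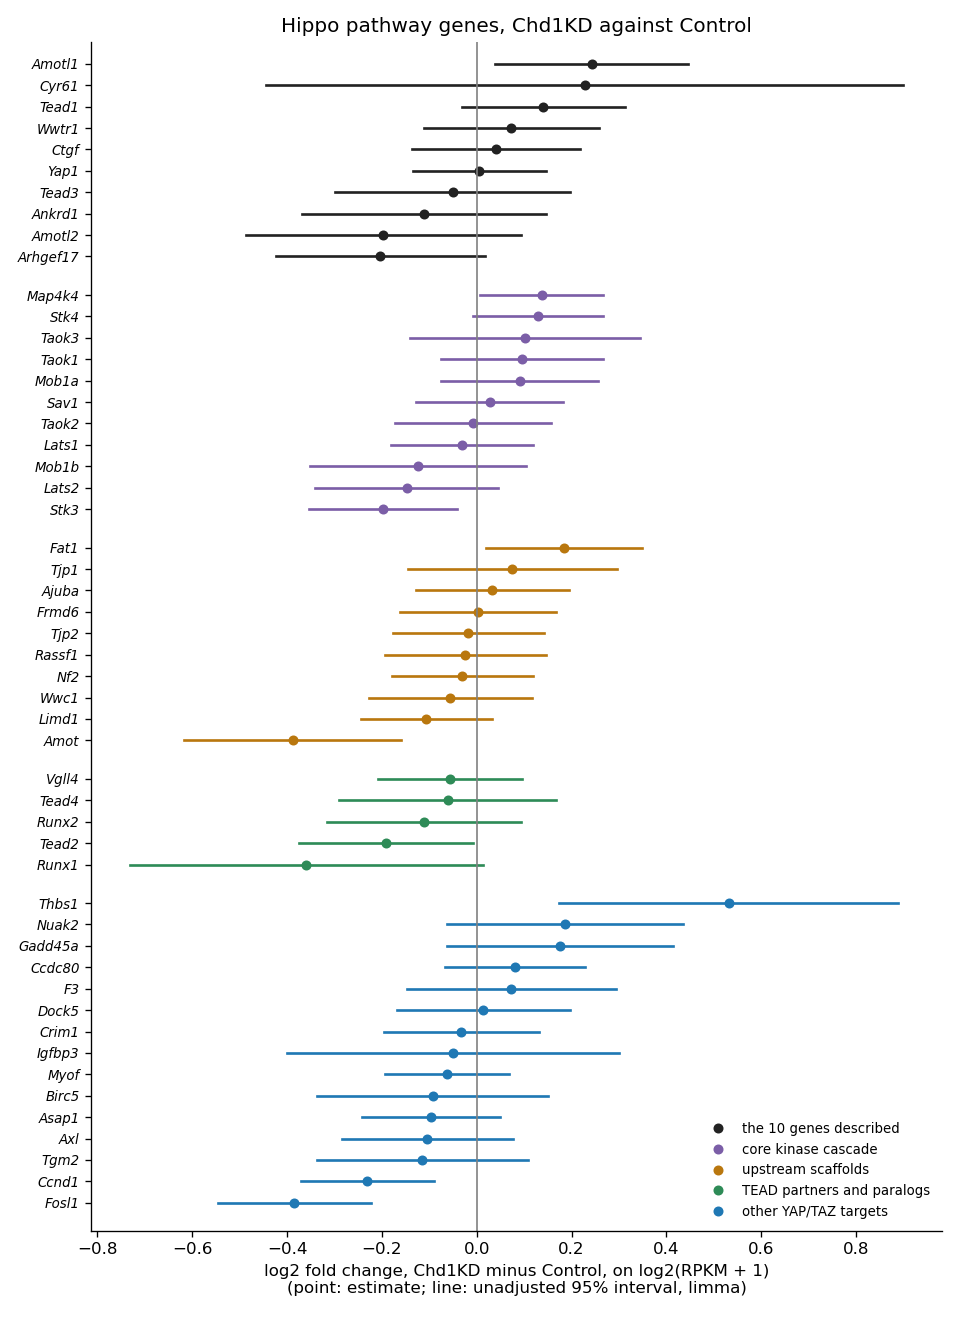
Log2 fold change of Chd1KD against Control on log2(RPKM + 1) for the 10 genes and 41 of the 42 further tested pathway genes, grouped by role; points are estimates and lines unadjusted 95% intervals from limma. None of those shown passed the adjusted threshold, and Cyr61 has the widest interval of the 10.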

How the data were processed

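Per the file headers, the deposited values are RPKM for 30582 rows, each a RefSeq transcript. TopHat 1.4.1 and Cufflinks 1.3.0 appear in the submitters' processing notes, with mm10 as the build. For the annotation release, filters and strand setting, the sources used here give nothing. All 4 single-library tables equalled the columns of the series table. Rows were named with the NCBI table for GRCm38.p6 (30003 rows) and GENCODE M21 (180), and RPKM was summed per gene, further genomic copies included. RPKM carries no read counts: among 376 low transcripts at most 10.4% shared the commonest ratio between libraries, so depth is unknown and no counting interval is given.

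Groups came from the sample titles. Chd1KD was compared with Control in limma 3.58.1 (R 4.3.3) with a variance trend and no covariate, checked on simulated data. A fold change is on the log2(RPKM + 1) scale, and 95% intervals are unadjusted. With 2 libraries a group, an exact permutation test has a smallest two-sided p of 0.333 and was left out. The members and lists were chosen with earlier results of these data known. All members were named, and from each further list the 3 tested genes with the smallest p, with Tead4, Vgll4, Igfbp3 and the genes at or near 0 added after their values were seen; Chd1 checked the labels. A tested gene of the further lists is counted but not reported here. Alternatives covered the pseudocount, filter, scaling, variance model, replicate number, transcript choice and each library left out. Figures were drawn with matplotlib 3.10.9.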

Additional observations from a re-analysis of the deposited data

How the results depend on the processing

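No member was called in any of the 14 alternatives (limma), and 4 of the 10 (Tead1, Amotl1, Amotl2 and Arhgef17) kept the sign of their log2 fold change in all alternatives that could be run. Amotl1 and Arhgef17 could not be tested with a filter at a mean of 5 RPKM. The other 6 turned only where a library was left out. Their ranges over the 4 such fits were -0.031 to 0.042 for Yap1, -0.016 to 0.16 for Wwtr1, -0.16 to 0.059 for Tead3, -0.046 to 0.13 for Ctgf, -0.19 to 0.65 for Cyr61 and -0.27 to 0.045 for Ankrd1. Of all tested genes 0 were called without a filter on low values (2120 at an unadjusted p under 0.05, limma), 71 with a filter at a mean of 5 RPKM, 6 without a variance trend, 92 with a robust trend, 12 with the most abundant transcript, and from 49 to 236 with a library left out; the cause was not tested. With the replicate number as a block 325 genes were called. In that fit 1 of the further pathway genes, Fosl1, was called (limma, adjusted p = 0.024). The smallest adjusted p of a member was 0.096 for Amotl2 (limma). That of Cyr61 was 0.12 with the block and 0.70 without it (limma). Across tested genes the deviations of same-numbered libraries correlated at r = 0.22, with 2 pairs and no stated pairing. Fits with a library left out have a single library in a group, so the numbers of tested genes called in them are not given.

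With 2 libraries a group and unknown depth, the intervals of the members leave room for differences of up to 0.90 (Cyr61) on the log2 scale, and for Yap1 up to 0.15.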

Other observations

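A difference between libraries with different replicate numbers was also seen in Igfbp3, a further YAP/TAZ target that encodes a secreted insulin-like growth factor binding protein and was named after its values were seen. It had 170.2 RPKM in replicate 1 and 205.9 RPKM in replicate 2 of Chd1KD, against 167.4 and 224.5 RPKM in Control. The library numbered 2 was higher in both groups, as for Ctgf. Igfbp3 did not pass the test between Chd1KD and Control (limma, adjusted p = 0.89).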
